A study of Mus musculus with 111 samples.

Results

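The genes described here are 9 that encode parts of histone H3 lysine 4 (H3K4) methyltransferase complexes or their relatives, Wdr5, Ash2l, Rbbp5, Kmt2a, Kmt2c, Kmt2d, Kmt2e, Setd1a and Setd1b, together with the kinase gene Srpk2, whose annotated exons meet those of Kmt2e on the other strand. They make up 10 of the 54087 gene rows counted in every library, and all 10 were among the 13891 rows that passed the filter on low counts over all libraries. The 9 methyltransferase genes were taken by name. Srpk2 was added because its row was higher in libraries of the H3.3 Q5A virus than in control libraries, so it was selected on its Q5A and control values, which are given below as a description, with no test.

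The data are RNA-seq libraries of the tuberomammillary nucleus (TMN), the posterior hypothalamic region that holds the histamine-producing neurons. Adult C57BL/6 mice (C57BL/6J in the methods) of both sexes, obtained at 8 to 10 weeks of age, received an adeno-associated virus (AAV) in the TMN on both sides, and tissue was taken 3 weeks later. The virus expressed GFP alone (32 libraries), wild-type histone H3.3 (39 libraries) or H3.3 Q5A (39 libraries), in which the glutamine next to lysine 4 is an alanine that cannot carry a monoamine. Tissue was collected at zeitgeber times (ZT) 0, 4, 8, 12, 16 and 20, with lights on at ZT0, and the GFP and H3.3 libraries together were the controls (71 libraries). All mice carried their own H3.3 genes, and all 3 vectors also expressed GFP, which marked the infected tissue for dissection. The 18 combinations of virus and ZT held 4 to 8 libraries each.

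Methylation of H3K4 marks promoters and enhancers in use, and its trimethylated form is concentrated at active promoters. WDR5, ASH2L and RBBP5 form a common core that holds the catalytic subunit and stimulates it, and KMT2A, KMT2C, KMT2D, SETD1A and SETD1B are alternative catalytic subunits with partly different targets. KMT2E carries a divergent SET domain and binds trimethylated H3K4 through its PHD finger, whereas SRPK2 phosphorylates serine and arginine rich splicing factors and is no part of these complexes. In libraries from whole tissue, fewer cells of a type and less RNA per cell cannot be told apart.

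The gene rows of a library held 673306 to 3375352 reads, with a median of 1474422, and these were 3.49% to 5.63% of its uniquely placed reads. The kit marks strand, and its first read runs against the transcript, while the counting option accepted only reads on the strand of the gene. A row is therefore named here as the row of a gene, and how much of each row came from transcripts of the opposite strand was not tested. The labels give a cohort number, and libraries of cohort 1 (28 GFP, 24 H3.3 and 26 Q5A), cohort 2 (4, 10 and 10) and cohort 3 (0, 5 and 3) were spread unevenly over the viruses, so most values below are given by cohort. What else separated the cohorts is not given in the sources used here. Summed normalised counts of 4 TMN markers (Hdc, Slc18a2, Maob and Hrh3) ran from 63.4 to 369 in controls and from 77.2 to 213 in Q5A libraries. Hdc, which encodes the histamine-making enzyme, had a median of only 4 reads and none in 11 libraries. The 4 neuronal markers summed to a median of 602 in controls and 681 in Q5A libraries, and the 4 oligodendrocyte markers to 1297 and 1231. The 4 astrocyte markers summed to 156 and 165, the 4 microglial markers to 289 and 274, and the 4 endothelial markers to 20.9 and 22.1. Single rows led some of these sums. Csf1r had a median of 259.5 reads, against 15 for Cx3cr1, 14.5 for C1qa and 2 for P2ry12. Among the TMN markers Slc18a2 had 90, against 16 for Hrh3 and 6 for Maob. The 6 pituitary genes, markers of neighbouring tissue, had median sums of 68.6 and 71.5. The 4 striatal genes with a row, also markers of neighbouring tissue, had 44.3 and 44.5. Of the pituitary genes, Cga, Gh and Prl had a median of 0 reads, Pitx1 of 1 and Pomc of 3. The hormone gene Tshb had a median of 62.5 reads and was at 0 in no library. Single libraries stood far above the median sums, with striatal sums of up to 492 in GFP, 588 in H3.3 and 894 in Q5A. Pituitary sums reached 184 in controls and 535 in Q5A.

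On GRCm38, Kmt2e lies on the plus strand of chromosome 5 from 23434441 to 23504235 and Srpk2 on the minus strand from 23503264 to 23684617. Their 3' ends share 972 bases, from 23503264 to 23504235, which are noncoding exon in both genes and make up 9.31% of the exonic bases of Kmt2e and 6.99% of those of Srpk2. No other gene of the 10 shared exonic bases with a protein-coding gene on the other strand in the annotation used here. Kmt2a (chromosome 9, 44803355 to 44881296, minus strand) shares 378 exonic bases with the antisense gene AC061963.1, Kmt2c (chromosome 5, 25271798 to 25498783, minus strand) 274 with Gm42585, and Setd1a (chromosome 7, 127776670 to 127800122, plus strand) 29 with 9430064I24Rik, none of which is analysed here. In that annotation Setd1a also shares 3523 exonic bases with Gm49388 on its own strand. The count files have no row of that name, and whether the counting annotation held such a gene was not tested. The other 5 genes had no annotated partner on the other strand. They are Wdr5 (chromosome 2, 27515157 to 27536535, plus strand), Ash2l (chromosome 8, 25815996 to 25847694, minus strand), Rbbp5 (chromosome 1, 132477365 to 132505659, plus strand), Kmt2d (chromosome 15, 98831669 to 98871204, minus strand) and Setd1b (chromosome 5, 123142193 to 123168629, plus strand).

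The rows of Kmt2e and Srpk2, the overlapping pair, were by far the most abundant of the 10 per length of exon. Normalised counts (reads divided by the size factor of the library) per kilobase of exon were 22.5 ± 6.20 for Kmt2e and 13.3 ± 4.58 for Srpk2 (SD, n = 110), followed by 5.50 ± 1.37 for Setd1a and 3.08 ± 0.933 for Kmt2a. The remaining genes lay lower, with 2.17 ± 0.659 for Ash2l, 2.00 ± 0.627 for Setd1b, 1.60 ± 0.956 for Rbbp5, 1.42 ± 0.440 for Kmt2d, 1.15 ± 0.717 for Wdr5 and 0.955 ± 0.421 for Kmt2c. Kmt2e was above Srpk2 in 108 of 110 libraries, Srpk2 above Setd1a in 109 and Setd1a above Kmt2a in 102, and each of these 3 steps exceeded the SD of the difference within libraries. The 6 lower steps did not exceed it. From Kmt2a down to Kmt2c the upper gene of each neighbouring pair was higher in 62 to 93 of 110 libraries, so the order varied between libraries. Whether the means of these neighbours differ was not tested.

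**Figure D1:**
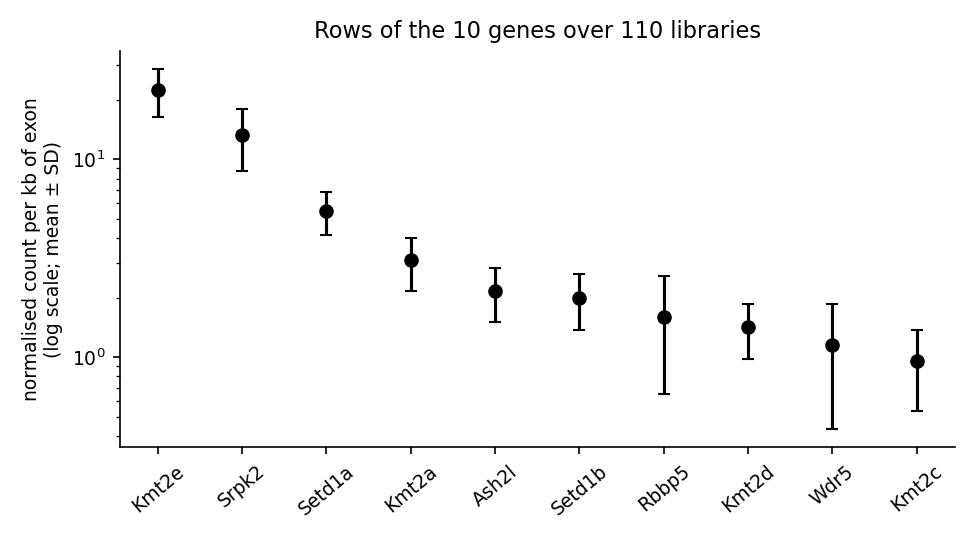
Normalised count per kilobase of exon (log axis) for the rows of the 10 genes, as mean ± SD over 110 libraries. Kmt2e (22.5) and Srpk2 (13.3) stand above Setd1a (5.50), and the 7 other rows lie at 3.08 or lower.

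Read numbers set the precision of each row. Kmt2e had 108 to 406 reads per library (median 237) and Srpk2 72 to 371 (median 168). Medians were 50 reads for Kmt2a, 38 for Setd1a, 27.5 for Kmt2d, 23 for Setd1b, 19 for Ash2l and 17.5 for Kmt2c. Wdr5 had a median of 3.5 reads and Rbbp5 of 6, and these rows were at 0 in 5 and 4 libraries. Over all libraries the coefficient of variation was 62.4% for Wdr5 and 59.6% for Rbbp5, of which counting alone gives 46.2% and 37.2%. For Srpk2 it was 34.3% against 7.21% from counting, and for Kmt2e 27.5% against 6.45%, so counting made up a small part of the spread of these 2 rows.

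The Srpk2 row was higher in Q5A libraries than in either control virus, most of all in cohort 1. Its normalised count averaged 151 ± 31.1 (SD) in 32 GFP libraries, 179 ± 63.8 in 39 H3.3 libraries and 220 ± 67.0 in 39 Q5A libraries. In cohort 1 the lowest, median and highest values were 107, 150 and 225 in GFP, 127, 208 and 336 in H3.3, and 211, 252 and 327 in Q5A. The Q5A libraries of that cohort overlapped little with GFP, since 22 of 26 lay above the highest GFP library and all 26 above the GFP median, but they overlapped widely with H3.3. Of the 24 H3.3 libraries, 8 also lay above the highest GFP library. How many other rows separate Q5A from GFP in this way was not tested.

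In the smaller cohorts the Srpk2 row was lower and its groups overlapped. The 4 GFP libraries of cohort 2 were at 134 (ZT8), 105 (ZT12), 113 and 111 (both ZT16). The 10 H3.3 libraries of cohort 2 ran from 92.9 to 166 with a median of 129, and the 10 Q5A libraries from 99.0 to 162 with a median of 144. In cohort 3, which had no GFP library, the 5 H3.3 libraries were at 95.1 (ZT4), 131 (ZT8), 116 (ZT12), 121 and 106 (both ZT16), and the 3 Q5A libraries at 114 (ZT4), 172 (ZT12) and 124 (ZT16). Every Q5A library of cohorts 2 and 3 therefore lay below the lowest Q5A library of cohort 1, which was at 211 for Srpk2.

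**Figure D2:**
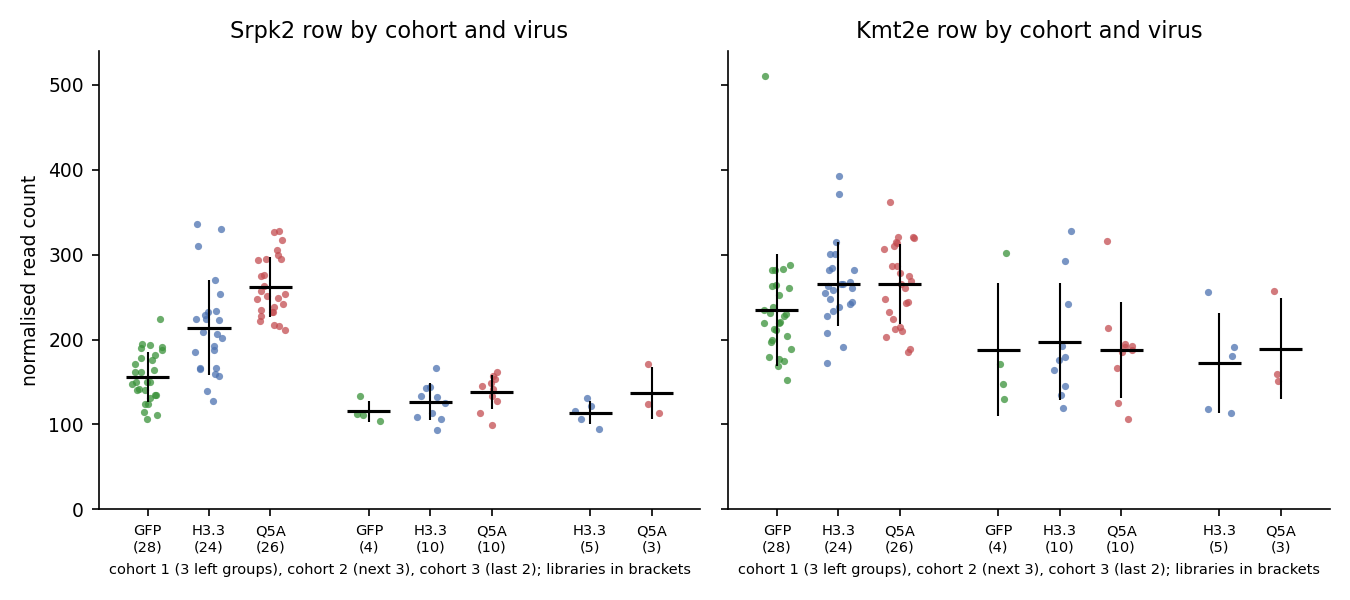
Normalised read counts of the Srpk2 row (left) and the Kmt2e row (right) in each library, by cohort and virus, with the number of libraries in brackets; horizontal lines are means and vertical lines ± SD. For Srpk2 in cohort 1 the means are 156 (GFP), 214 (H3.3) and 262 (Q5A), while for Kmt2e they are 235, 265 and 265.

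Across all libraries the log2 difference of the Srpk2 row between Q5A and the pooled controls was 0.41 ± 0.09 (SE, edgeR fit with ZT as a factor). This is the contrast that selected Srpk2, and 2 of 13891 rows (0.0144%) were called in it at an adjusted p under 0.01, or 12 (0.0864%) with cohort as a covariate. The difference was 0.53 ± 0.08 in cohort 1, 0.43 ± 0.06 with cohort as a covariate and 0.18 ± 0.11 in cohorts 2 and 3. Taken against each control virus, it was 0.54 ± 0.10 over GFP (0.75 ± 0.07 in cohort 1) and 0.31 ± 0.10 over H3.3 (0.31 ± 0.08 in cohort 1). These comparisons share the Q5A libraries, and each control library enters the pooled comparison as well. Pomc, a hormone precursor gene of the pituitary list that hypothalamic neurons also express, moved the same way, by 1.58 ± 0.32 (SE, edgeR adjusted p = 0.0101) over all cohorts. It was called with cohort as a covariate (1.53 ± 0.32, edgeR adjusted p = 0.00649) and in cohort 1 (1.97 ± 0.38, edgeR adjusted p = 0.0011, with 27 of 12640 rows called, 0.214%). Q5A ZT16 cohort 1 replicate 3, which had the pituitary sum of 535, held 334 Pomc reads, and without that library the difference of Pomc was 0.66 ± 0.25 (edgeR adjusted p = 0.754) and that of Srpk2 0.39 ± 0.09.

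Split by time of day, the Q5A values of Srpk2 are still those that selected it and remain a description. In cohort 1 the Q5A mean of the row was above the GFP mean at 6 of 6 ZT. No Q5A library overlapped with GFP within a ZT, and how many other rows do the same was not tested. At ZT0 the 4 GFP libraries lay between 111 and 193 and the 4 Q5A libraries between 263 and 318. The gap was narrowest at ZT20, with 5 GFP libraries between 135 and 225 and 4 Q5A libraries between 248 and 294. The H3.3 mean was above the GFP mean at 6 of 6 ZT as well, although the 2 means were nearly equal at ZT12 (181 ± 10.9 for 5 GFP and 183 ± 31.0 for 4 H3.3 libraries). At ZT16 the 4 H3.3 libraries spread from 139 to 336, the widest H3.3 range of any ZT, and this was the only ZT at which the H3.3 mean of Srpk2 (253) exceeded the Q5A mean (243).

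**Figure D3:**
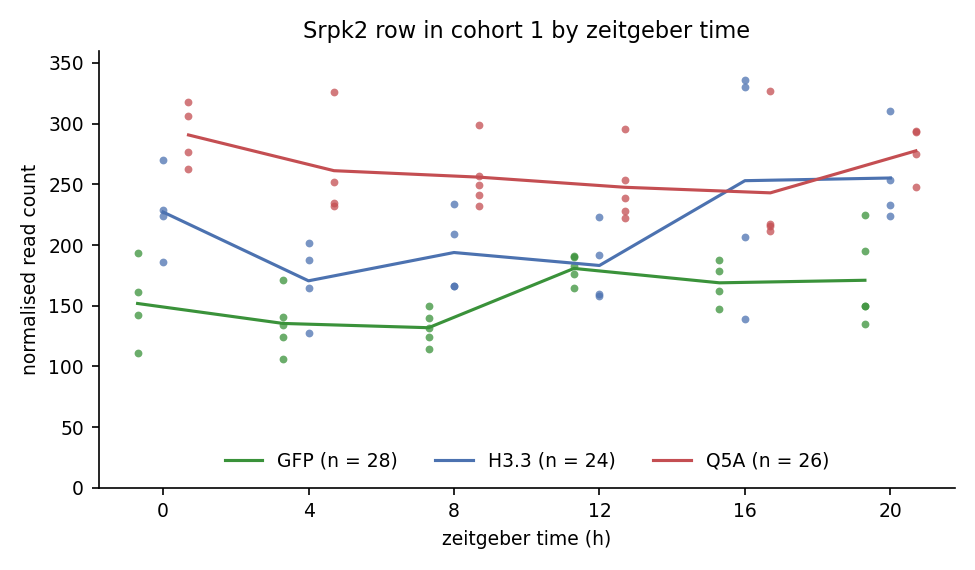
Normalised read count of the Srpk2 row in cohort 1 against zeitgeber time in hours; points are libraries, shifted sideways by virus, and lines join the means. Q5A points lie above all GFP points at each of the 6 ZT, and H3.3 means lie between the other means except at ZT16.

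Whether the 2 control viruses differed is a question the selection of Srpk2 did not use. Over all ZT and cohorts none of the 10 genes was called between H3.3 and GFP at an adjusted p under 0.01, as were none of the 13891 rows (0% called by edgeR, with 526 at an unadjusted p under 0.05, and 0 by DESeq2). The log2 difference of Srpk2 was 0.24 ± 0.10 (edgeR adjusted p = 1.00). With cohort as a covariate it was 0.41 ± 0.07 and passed (edgeR adjusted p = 0.000442), as 1 of 11 rows called among 13891 (0.0792%), and within cohort 1 it was 0.44 ± 0.08 (edgeR adjusted p = 0.000632), as 1 of 10 among 12640 (0.0791%). The fit with cohort was planned as an alternative and not as the main test. In cohorts 2 and 3 the difference was 0.02 ± 0.19 (edgeR adjusted p = 0.998, 0% of 15297 rows called), with 4 GFP libraries.

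The cohort-adjusted call of Srpk2 did not hold in every fit that left out a replicate number of cohort 1. These fits held 92 to 103 of the 110 libraries, and the part of the smaller number in the lost calls was not tested. Leaving out replicate 1, 2, 3, 4 or 5 of cohort 1 in all groups gave log2 differences from 0.32 to 0.43 and edgeR adjusted p of 0.00542, 0.0219, 0.0487, 0.0113 and 0.00837, so the call was lost without replicates 2, 3 or 4. The difference between H3.3 and GFP was not shown to depend on the cohort, since its change from cohort 1 to cohort 2 was -0.32 ± 0.19 on the log2 scale for Srpk2 (edgeR adjusted p = 0.561). In that test 0 of 9 genes and 0 of 12940 rows (0%) passed.

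Srpk2 and Kmt2e were the members that differed between cohorts. From cohort 1 to cohort 2, with virus and ZT in the fit, the Srpk2 row fell by 0.76 ± 0.07 on the log2 scale (edgeR adjusted p = 9.84e-16) and the Kmt2e row by 0.43 ± 0.08 (edgeR adjusted p = 5.17e-05). They were 2 of 10 members called, beside 284 of 13721 rows (2.07%). The 8 other members differed by -0.08 to 0.13 and did not pass.

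Kmt2e differed less between the viruses than Srpk2. Its normalised count averaged 229 ± 67.9 (SD) in GFP, 236 ± 66.5 in H3.3 and 240 ± 61.4 in Q5A libraries. In cohort 1 the lowest, median and highest values were 152, 224 and 511 in GFP, 173, 262 and 393 in H3.3, and 186, 267 and 362 in Q5A. The 3 ranges overlapped, but the GFP maximum was 1 library at ZT20, where the next value was 283. The GFP median was exceeded by 21 of 24 H3.3 and 20 of 26 Q5A libraries. Ratios of the mean to that of GFP were 1.13 for H3.3 and 1.13 for Q5A in cohort 1. They were 1.05 and 0.999 in cohort 2, with 4 GFP libraries. Over all cohorts, without a cohort term, the log2 difference of Kmt2e between Q5A and controls was 0.04 ± 0.08 (SE). Between H3.3 and GFP it was 0.06 ± 0.09 (edgeR adjusted p = 1.00). Within libraries of cohort 1, log2 of the ratio of the Srpk2 row to the Kmt2e row was -0.57 ± 0.33 (SD) in GFP, -0.33 ± 0.42 in H3.3 and -0.01 ± 0.22 in Q5A. In cohort 2 the ratio was -0.63 ± 0.39, -0.59 ± 0.50 and -0.40 ± 0.38. The mean ratio of the overlapping pair was highest in the Q5A libraries of both cohorts. Its step over GFP exceeded the SD within groups in cohort 1 and fell short of it in cohort 2. The ratio holds the Srpk2 values that selected that row, so it is a description and no separate result. How many reads of either row came from the 972 shared bases was not tested.

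The core subunits Wdr5, Ash2l and Rbbp5 had means that differed between viruses by less than the SD between libraries. Wdr5, the subunit that contacts the tail of histone H3, averaged 4.16 ± 2.57 (SD) normalised counts in GFP, 4.25 ± 2.42 in H3.3 and 3.99 ± 2.80 in Q5A, with a highest library of 11.5. Ash2l, which with RBBP5 activates the catalytic subunit, averaged 18.0 ± 3.89, 20.3 ± 6.63 and 19.8 ± 6.42, and the 110 libraries ran from 6.15 to 37.6. Rbbp5 averaged 6.29 ± 3.78, 6.51 ± 4.07 and 6.11 ± 3.49, and ran from 0 to 20.1. The log2 differences between Q5A and controls were -0.03 ± 0.19 (SE) for Wdr5, 0.05 ± 0.09 for Ash2l and -0.06 ± 0.18 for Rbbp5, and between H3.3 and GFP 0.01 ± 0.24, 0.17 ± 0.11 and 0.06 ± 0.22 (edgeR adjusted p = 1.00 for each). The SE of the Q5A difference was larger for Wdr5 (0.19) and Rbbp5 (0.18), with their few reads per library, than for Kmt2e (0.08).

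Among the catalytic subunits, Kmt2a averaged 53.0 ± 15.4 (SD) normalised counts in GFP, 48.5 ± 16.4 in H3.3 and 52.9 ± 14.8 in Q5A. Kmt2c averaged 20.6 ± 7.56, 18.0 ± 8.97 and 19.8 ± 8.88, and Kmt2d 29.0 ± 8.68, 26.9 ± 8.85 and 29.4 ± 8.81. Setd1a averaged 38.7 ± 9.07, 38.3 ± 10.8 and 35.4 ± 7.68, and Setd1b 22.4 ± 6.72, 24.6 ± 8.18 and 25.015 ± 7.54. For each of these 5 genes the ranges of the 3 viruses overlapped over most of their length. Between Q5A and controls the log2 differences were 0.07 ± 0.09 (SE) for Kmt2a, 0.08 ± 0.12 for Kmt2c, 0.09 ± 0.09 for Kmt2d, -0.12 ± 0.08 for Setd1a and 0.09 ± 0.09 for Setd1b. The Q5A difference of Setd1b was 0.26 ± 0.10 in cohort 1 and -0.31 ± 0.21 in cohorts 2 and 3. Whether it depended on the cohort was not tested. Between H3.3 and GFP the differences ran from -0.23 ± 0.15 for Kmt2c to 0.15 ± 0.11 for Setd1b, with an edgeR adjusted p of 1.00 for each of the 5.

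**Figure D4:**
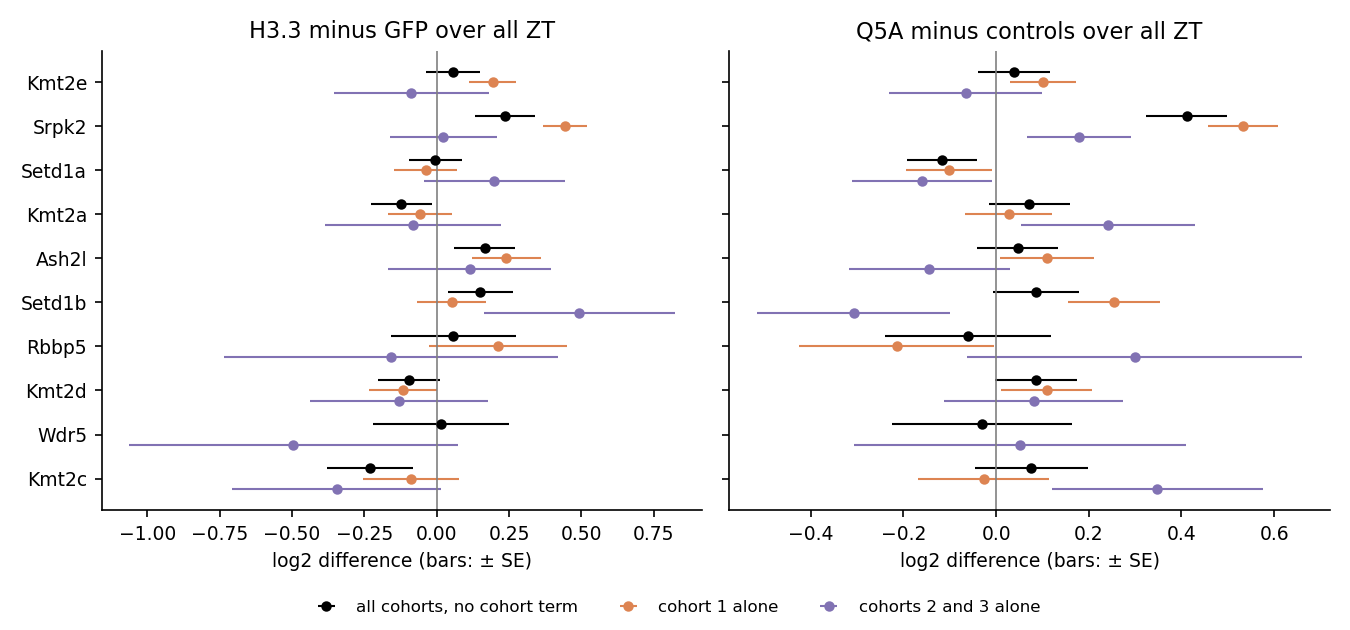
Log2 difference (± SE) of each gene row between H3.3 and GFP (left) and between Q5A and controls (right), for all cohorts, cohort 1 and cohorts 2 and 3. Srpk2 has the largest value in cohort 1 in both panels (0.44 and 0.53), the 9 other rows lie between -0.12 and 0.09 for Q5A minus controls over all cohorts, and Wdr5 was below the filter in cohort 1.

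At single ZT, where each group held 4 to 8 libraries, 8 genes passed the filter (Wdr5 and Rbbp5 did not) and none was called between H3.3 and GFP at any ZT. Over the 6 ZT together 0 of 56187 tests passed in edgeR (0%), and DESeq2 called 53. ZT12 held the smallest p. There Kmt2a ran from 54.4 to 85.3 normalised counts with a median of 66.9 in 6 GFP libraries and from 28.8 to 62.0 with a median of 33.5 in 7 H3.3 libraries, so that the ranges overlapped at their ends. The log2 difference of Kmt2a at ZT12 was -0.88 ± 0.23 (edgeR adjusted p = 0.0700). Kmt2c and Kmt2d, its relatives in the KMT2 family, stood at -0.97 ± 0.36 and -0.72 ± 0.25 (edgeR adjusted p = 0.101 and 0.0920), whereas Srpk2 stood at -0.17 ± 0.19 and Kmt2e at 0.17 ± 0.23. At ZT20 the sign of all 3 KMT2 genes was the other way, with 0.64 ± 0.29 for Kmt2a, 0.51 ± 0.33 for Kmt2c and 0.34 ± 0.27 for Kmt2d, none of which passed. Of all 9774 rows tested at ZT12, 2877 had an unadjusted p under 0.05, and at ZT20 1247 of 9323. The share of uniquely placed reads in gene rows was 4.33% ± 0.70 (SD) in GFP and 3.87% ± 0.22 in H3.3 at ZT12, and 3.88% ± 0.21 and 4.27% ± 0.41 at ZT20, and its part in these values was not tested.

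That share varied between libraries of one group, and the rows of several members were correlated with it, as were those of most other genes. In the 78 libraries of cohort 1 the normalised count of Kmt2c was higher where the share was higher (Pearson r = 0.61, Spearman rho = 0.57). Without the 2 libraries farthest from the median share, r for Kmt2c was 0.55. Kmt2a (r = 0.53, rho = 0.47), Wdr5 (0.44, 0.43), Kmt2d (0.39, 0.35) and Rbbp5 (0.49, 0.34) had the same sign, while Kmt2e (-0.43, -0.44) and Setd1a (-0.43, -0.28) had the opposite one, so that 7 of 10 members had a rho of at least 0.28 in size. Of all 13891 rows 53.7% had a rho of that size (30.8% positive and 23.0% negative), and the median size of rho was 0.349 for the members and 0.302 for all rows, and the relation is given as a description, with no test. The limit of 0.28 is the size of rho for Setd1a, the lowest of the 7. It was thus set on the members' own values, which the medians do not use as a limit. Leaving out the 2 libraries gave r of 0.48, 0.40, 0.34, 0.32, -0.53 and -0.24 for these 6 genes. The values were smaller for Srpk2 (r = -0.15, rho = -0.21), Setd1b (0.13, 0.17) and Ash2l (0.00, -0.13). In the 24 libraries of cohort 2, rho was 0.43 for Kmt2c, 0.17 for Kmt2a, 0.57 for Wdr5, 0.17 for Kmt2d, 0.56 for Rbbp5, -0.56 for Kmt2e and -0.42 for Setd1a, the same sign as in cohort 1 for each of the 7. The share itself was alike in the 3 viruses of cohort 1, at 3.96% ± 0.19 (SD) in GFP, 3.93% ± 0.29 in H3.3 and 3.92% ± 0.18 in Q5A.

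**Figure D5:**
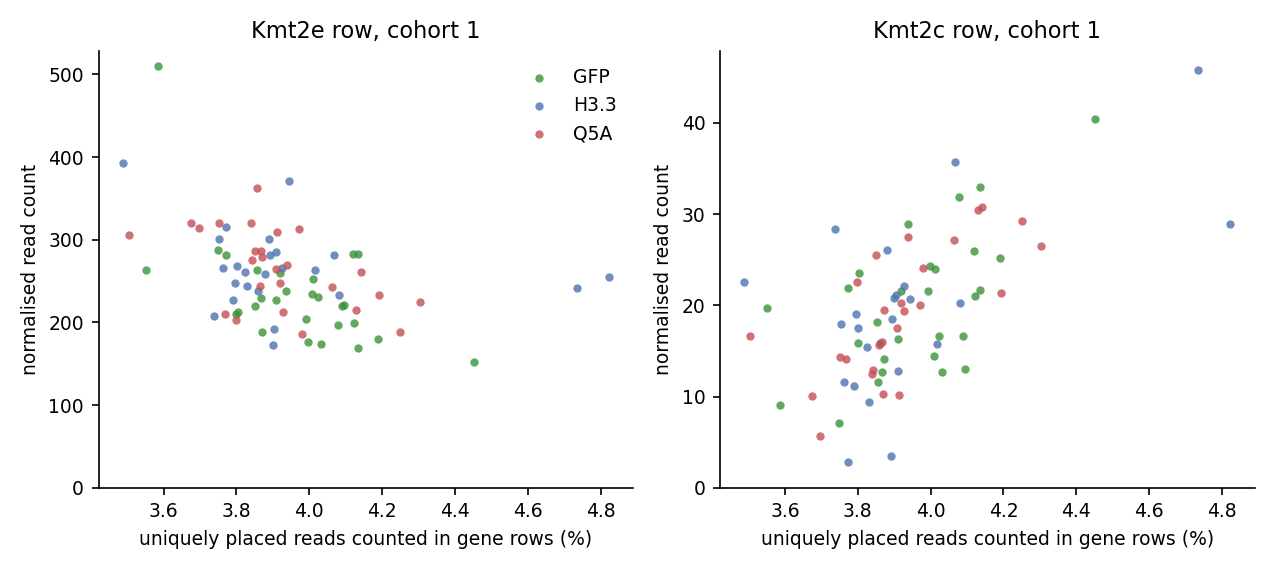
Normalised read count of the Kmt2e row (left) and the Kmt2c row (right) in the 78 libraries of cohort 1 against the share of uniquely placed reads in gene rows (%), coloured by virus. Kmt2e is lower (Spearman rho = -0.44) and Kmt2c higher (rho = 0.57) where the share is larger, with all viruses spread over the same range.

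Correlations between members in cohort 1 are given as a description, with no test. Of the 45 pairs among the 10 genes, 15 had a Spearman rho of at least 0.287 in size, 13 positive and 2 negative, where 22.3% of all pairs of the 13891 rows did, 11.3% with a positive sign. That limit is the smallest size among these 15 pairs. It was thus set on the members' own values, and the count and the share are no even comparison. The median size of rho was 0.18 over the 45 pairs and 0.16 over all pairs of rows. The highest were Kmt2c with Kmt2d (rho = 0.55, r = 0.52, and r = 0.50 without the 2 extreme libraries) and Kmt2a with Kmt2c (rho = 0.49, r = 0.51, and r = 0.48 without them). Both negative pairs held Kmt2e, with Kmt2c (rho = -0.38, r = -0.38) and with Kmt2a (rho = -0.30, r = -0.41), and r was -0.36 and -0.31 without the 2 extreme libraries. These genes were also correlated with the share of reads in gene rows, and the part of that share in the pair values was not tested. Kmt2e and Srpk2 had a rho of 0.44 and an r of 0.38 (0.48 without the 2 extreme libraries), but the viruses differ in Srpk2. Within the 26 Q5A libraries of cohort 1 rho was 0.60 and r 0.62, within the 28 GFP libraries 0.45 and 0.42, and within the 24 H3.3 libraries 0.04 and 0.09. Without the 2 extreme libraries r was 0.61, 0.29 and 0.24, and whether the viruses differ in this correlation was not tested.

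The rows most like Srpk2 over the 110 libraries were not those of the methyltransferase genes. Ranked by Spearman rho among 13890 other rows, as a description of libraries that share virus and cohort, the first 3 were Ubxn8 (rho = 0.92), RP23-273G23.2 (0.89) and Fbxl22 (0.88), while Kmt2e stood at rank 126 (0.60). Within cohort 1 the values for Srpk2 were 0.92, 0.86 and 0.80, and within the 24 libraries of cohort 2 they were 0.34, 0.43 and 0.66. Fbxl22 itself shares 317 exonic bases with Herc1 on the other strand. For Kmt2e the nearest rows were RP23-435G20.3 (0.82), RP24-285L8.3 (0.79) and Slc6a20b (0.75), and Srpk2 stood at rank 111. Slc6a20b shares 1800 exonic bases with Sacm1l on the other strand. The 3 clone-named rows have no position in the annotation used here.

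A daily rhythm was sought in each row with the JTK_CYCLE procedure, which compares the order of values with cosine templates of 8 to 24 h and takes p from the exact null distribution, multiplied by the 20 templates. In controls 1 of 10 members was called at an adjusted p under 0.05, against 16.8% of all rows. In Q5A libraries none of the 10 was called, against 4.54%. GFP alone gave 2 of 10 against 13.5%, and H3.3 alone gave 1 of 10 against 7.65%. Each count is within 1 gene of what the background share gives for 10 genes, and no member reached a q under 0.05 over all rows in any of the 4 sets. How many of all rows reached that q is given below, with the other settings. The edgeR test of ZT as a factor called 0 of 10 in each set. Of all 13891 rows the same test called 1305 for GFP, 691 for controls, 44 for H3.3 and 37 for Q5A. These are small shares, so 0 of 10 does not set the members apart from other rows.

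The called rows were those of Setd1a, Kmt2a and Kmt2c, in numbers near the background shares given above. Setd1a was called in controls (exact JTK adjusted p = 0.0146, q = 0.154, template period 20 h, peak at ZT8) and in GFP (exact JTK adjusted p = 0.0349). Its GFP mean was 46.3 ± 7.41 (SD, n = 6) at ZT8, 30.5 ± 3.64 (n = 6) at ZT16 and 39.4 ± 13.0 (n = 5) at ZT20. The H3.3 mean of Setd1a was 43.0 ± 9.14 (n = 7) at ZT8 and 43.9 ± 9.53 (n = 7) at ZT12. It was 37.7 ± 8.38 (n = 8) at ZT16 and 27.9 ± 11.3 (n = 6) at ZT20. The lowest mean thus fell at different ZT in the 2 viruses, and Setd1a was not called in H3.3 alone. Without replicate 1 or 2 of cohort 1 the call of Setd1a in controls was lost (exact JTK adjusted p = 0.141 and 0.102). The call of Setd1a for rhythm in GFP was lost without replicate 3 or 4 (exact JTK adjusted p = 0.0931 and 0.192) and in cohort 1 (0.142). Kmt2a was called in GFP alone with a 12 h template (exact JTK adjusted p = 0.0396), its means being highest at ZT12 (69.6 ± 12.025, n = 6) and lowest at ZT20 (37.7 ± 14.1, n = 5). Kmt2c was called in H3.3 alone (exact JTK adjusted p = 0.0219, period 24 h, peak at ZT20), with 28.1 ± 9.51 (n = 6) at ZT20 against 10.99 ± 6.08 (n = 7) at ZT8. Leaving out replicate 2, 3 or 4 of cohort 1 ended that call of Kmt2c (exact JTK adjusted p = 0.1, 0.0572 and 0.124), and the call of Kmt2a was lost without replicate 1, 2, 3 or 5 (0.31, 0.104, 0.262 and 0.292). The rows of Srpk2 and Kmt2e were called in no set, with exact JTK adjusted p between 0.531 and 1 for Srpk2.

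A call in one set and not in another does not show that the rhythm differed, so the difference was tested on its own. For the 24 h rhythm between Q5A and controls, 0 of 10 members passed an adjusted p of 0.05, beside 17 of 13891 rows (0.122%). The smallest p was that of Wdr5 (edgeR adjusted p = 0.303). Between H3.3 and GFP 0 of 9 tested members passed, beside 2 of 13264 rows (0.0151%), and the smallest unadjusted edgeR p was 0.0660. DESeq2 called 0 members in either comparison, with smallest unadjusted p of 0.0168 and 0.0569.

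Other genes of H3K4 methylation and of SR protein phosphorylation were read from lists chosen for their function, 44 genes of which 36 passed the filter. None was called between Q5A and controls, between H3.3 and GFP over all ZT or at single ZT, or in either rhythm difference with all cohorts pooled. In cohort 1 alone, where the rhythm difference between Q5A and controls called 777 of 12640 rows (6.15%), it called Kdm1a, an H3K4 demethylase gene (edgeR adjusted p = 0.011), Srpk1 (0.0307) and Smyd3 (0.0458). Of 12 tested further complex subunits the median log2 difference between Q5A and controls was 0.05, of 4 other H3K4 methyltransferases 0.06, of 6 H3K4 demethylases 0.11, of 8 readers of H3K4 methylation 0.11 and of 6 SR protein kinases -0.05. The smallest p in that comparison belonged to Bptf, a chromatin remodeller subunit that reads trimethylated H3K4 (0.20 ± 0.08, SE, edgeR adjusted p = 0.847), and to Srpk3, a muscle-enriched relative of Srpk2 (-0.24 ± 0.11, adjusted p = 0.847). In the rhythm difference between Q5A and controls they were Srpk1 (edgeR adjusted p = 0.250) and Smyd3 (0.312), and between H3.3 and GFP Bod1l (0.257), a partner of the SETD1A complex, and Spin1 (0.264), a reader of trimethylated H3K4. At ZT12, Bod1l (-1.04 ± 0.22) and Spin1 (-1.15 ± 0.30) also had the smallest p of the lists between H3.3 and GFP (edgeR adjusted p = 0.0700 for both), the same sign as Kmt2a, Kmt2c and Kmt2d.

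Kdm1b, which encodes an H3K4 demethylase, was the 1 listed gene called between the control viruses over all ZT once cohort was in the fit. The log2 difference of Kdm1b between H3.3 and GFP was 0.26 ± 0.13 (SE, edgeR adjusted p = 1.00) over all cohorts, and it passed with cohort as a covariate (0.48 ± 0.09, edgeR adjusted p = 0.00268) and in cohort 1 (0.48 ± 0.09, 0.00368). With the covariate, leaving out replicate 1, 2, 3 or 4 of cohort 1 ended the call of Kdm1b (edgeR adjusted p = 0.0435, 0.0529, 0.0266 and 0.0834), while the log2 differences of 0.45, 0.45, 0.48 and 0.46 were close to that of all libraries. In cohorts 2 and 3 it was 0.47 ± 0.28 (adjusted p = 0.998). At ZT0 alone Kdm1b was called between H3.3 and GFP with cohort as a covariate (0.95 ± 0.17, edgeR adjusted p = 0.00835, 0.122% of 9008 rows called) and in cohort 1 (0.95 ± 0.16, edgeR adjusted p = 0.00793). Kdm1b fell by 0.90 ± 0.09 from cohort 1 to cohort 2 (edgeR adjusted p = 2.31e-13), and Psip1, which tethers the KMT2A complex to chromatin, fell by 0.33 ± 0.06 (adjusted p = 6.66e-06). Between Q5A and the pooled controls Kdm1b stood at 0.12 ± 0.11 (edgeR adjusted p = 0.853). Taken against GFP alone, Q5A was higher with cohort as a covariate (0.46 ± 0.09, edgeR adjusted p = 0.000741, 0.338% of 13891 rows called) and in cohort 1 (0.43 ± 0.09, edgeR adjusted p = 0.00232, 0.585% called), and against H3.3 the differences of Kdm1b were -0.02 ± 0.08 (adjusted p = 0.978) and -0.05 ± 0.09 (0.951). The comparisons of Q5A and of H3.3 with GFP share the GFP libraries.

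Rhythm calls in the lists numbered 4 of 36 genes in controls (16.8% of all rows), 5 in GFP (13.5%), 3 in H3.3 (7.65%) and 1 in Q5A (4.54%). In controls they were Bod1 (exact JTK adjusted p = 0.0141), Cxxc1 (0.0335), Clk4 (0.0344) and Men1 (0.0424), of which Men1 and Cxxc1 encode targeting subunits of the KMT2A and SETD1 complexes. In GFP they were Bod1, Chd1, Cxxc1, Bod1l and Spin1, in H3.3 Spin1, Clk4 and Phf2, and in Q5A libraries Ing1 (exact JTK adjusted p = 0.0317), which encodes a reader of trimethylated H3K4. Clk1, a kinase of SR proteins, had the smallest p of the lists after Kdm1b between H3.3 and GFP (-0.26 ± 0.13, edgeR adjusted p = 1.00).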

How the data were processed

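Libraries of polyadenylated RNA, 1 animal each, were made by the authors with the Illumina Stranded mRNA Prep kit, aligned with STAR 2.7.11b to GRCm38 and counted over exons with HTSeq 2.0.5 (stranded option yes, union mode). The deposited tables hold raw counts for 54087 gene rows. The 5 entries for unassigned reads were kept out of library sizes, and 18 files mapped to no sample were not used. One pair of libraries (Q5A, ZT4, cohort 2, numbers 2 and 3) differed by less than sampling noise and was counted as 1 sample, leaving 110 of 111 libraries.

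Levels were fitted on all rows with edgeR 4.0.16 in R 4.3.3 (TMM, filterByExpr with a minimum count of 10, quasi-likelihood F test, Benjamini-Hochberg adjustment, threshold 0.01, or 0.05 for interactions with the cosine and sine of 24 h). Normalised counts used median-of-ratios size factors over 9428 rows. DESeq2 1.42.0, JTK_CYCLE rewritten in Python 3.11.15 (scipy 1.17.1) and Pearson and Spearman correlations completed the set. Simulated data with known changes served as a check of edgeR fits without cohort terms and of JTK_CYCLE. The other steps had no such check. Positions come from GENCODE for GRCm38. Members, gene lists and comparisons were chosen with earlier results of these data known. Named beyond the members were listed genes called in a comparison or with its 2 smallest p, the 3 rows most like Srpk2 and Kmt2e, and exon neighbours on the other strand. P-values measure the spread between libraries.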

Additional observations from a re-analysis of the deposited data

Results flagged for a closer look

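In 180 groups of virus, ZT and gene, 12 values (6.67%) from 9 libraries stood apart from the rest of their group by Dixon's criterion, which chance alone meets in about 1 in 20 groups. Q5A ZT12 cohort 2 replicate 1 accounted for 4 of them, with the highest Rbbp5 (16.8 normalised counts), Kmt2a (106) and Kmt2c (53.7) and the lowest Kmt2e (125) of its group. Gene rows held 5.39% of its uniquely placed reads, near the upper end of all libraries. GFP ZT20 cohort 1 replicate 1 had the highest Kmt2e (511) and a share of 3.59%.

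Srpk2 was lowest in GFP ZT12 cohort 2 replicate 1 (105), the sole library of cohort 2 in that group. Kmt2c was highest in H3.3 ZT4 cohort 1 replicate 1 (26.1) and in H3.3 ZT20 cohort 1 replicate 2 (45.8). Setd1a was highest in GFP ZT0 cohort 1 replicate 3 (42). The 3 further values belong to the rows with the fewest reads, namely Wdr5 in GFP ZT16 cohort 2 replicate 1 (9.99) and in Q5A ZT0 cohort 1 replicate 2 (5.57), and Rbbp5 in Q5A ZT0 cohort 1 replicate 4 (11.1).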

How the results depend on the processing

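The number of rows called between Q5A and controls (2 of all rows tested) was 0 with DESeq2, 6 without the low-count filter, 27 in cohort 1, 12 with cohort as a covariate, 0 to 3 without 1 replicate number of cohort 1 and 0 without Q5A ZT16 cohort 1 replicate 3. Settings chosen after seeing the data gave 5 with GFP and H3.3 weighted equally, 0 in cohorts 2 and 3, and, with cohort as a covariate, 8 without Q5A ZT16 cohort 1 replicate 3 and 1 to 4 without 1 replicate number. Between H3.3 and GFP over all ZT (0) the number was 10 in cohort 1 and 11 with cohort as a covariate, and, added after seeing the data, 11 without that Q5A library and 0 to 7 without 1 replicate number. At single ZT (0) it was 53 with DESeq2, 166 without the filter, 13 in cohort 1, 16 with cohort as a covariate and 0 to 1 without 1 replicate number. The rhythm difference between Q5A and controls (17) gave 10 with DESeq2, 98 without the filter, 777 in cohort 1, 4 without the 3 libraries highest in RP23-355L10.3 and 2 to 18 without 1 replicate number, and that between H3.3 and GFP (2) gave 80, 1 in cohort 1 and 0 to 4. JTK calls of rhythm in controls (2340) were 420 at a q under 0.05, 691 by the edgeR test of ZT and 1465 to 2423 without 1 replicate number. For rhythm in Q5A (631) they were 1239 in cohort 1, 986 with 24 h alone, 1 at that q, 37 by edgeR and 388 to 554. For rhythm in GFP (1871) they were 1189 in cohort 1, 52 at that q and 1105 to 2410 (1105 and 1155 without replicate 1 or 2), and for rhythm in H3.3 (1063) 1 at that q, 44 by edgeR and 607 to 1063 (607 and 633 without replicate 1 or 4). The causes were not tested, other than fewer or more rows or libraries tested where a setting says so.

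Replicate numbers recur in every group. For 91 pairs of libraries that share ZT, cohort and number but not virus, deviations from group means were correlated from -0.29 to 0.66. Their median was 0.03, with 30 over 0.1. For 585 pairs of other numbers the values ran from -0.55 to 0.50, with a median of -0.01 and 126 over 0.1. Whether the numbers pair the libraries is not settled by these values. A replicate block gave 8 calls between Q5A and controls, 7 between H3.3 and GFP, 59 at single ZT and 6 in the rhythm difference between Q5A and controls. With the block, the difference of Srpk2 between H3.3 and GFP was 0.40 ± 0.07 (edgeR adjusted p = 0.00302).

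The Q5A difference changed sign between cohort 1 and cohorts 2 and 3 for Setd1b (0.26 ± 0.10 and -0.31 ± 0.21), Rbbp5 (-0.21 ± 0.21 and 0.30 ± 0.36), Ash2l (0.11 ± 0.10 and -0.14 ± 0.17), Kmt2c (-0.03 ± 0.14 and 0.35 ± 0.23) and Kmt2e (0.10 ± 0.07 and -0.07 ± 0.17), and no sign is read for these 5. The Srpk2 difference between H3.3 and GFP changed its call with cohort in the fit, as given above. Read depth limits Wdr5 and Rbbp5 in every comparison, and single ZT with 4 to 8 libraries a group limit all 10 genes. Gene rows hold a small share of the reads, and whether a row stands for the level of its gene was not tested. The cohorts hold unequal numbers of each virus.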
